A study of Rattus norvegicus with 30 samples.

Results

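Haem synthesis and iron export were followed through 9 rat genes, taken as the genes whose probe sets carry the platform's symbol for them. The set holds 7 enzymes of haem synthesis (Alas1, Alad, Uros, Urod, Cpox, Ppox and Fech) and 2 genes of iron export (Hamp and Slc40a1), out of 14217 genes measured. They were read by 12 of 31042 probe sets, with 3 for Slc40a1, 2 for Uros and 1 for each of the others. The livers came from Wistar Han rats given DE-71, a flame retardant sold as a blend of several polybrominated diphenyl ethers (PBDE), at 50 mg/kg in corn oil, or corn oil alone at 0 mg/kg. Both doses went by gavage at 5 ml/kg, to the dams from gestation day 6 and to the pups themselves until postnatal day 21, on 7 days per week, and after weaning on 5 days per week. There were 6 groups of 5 livers: male PBDE pups and male control pups on postnatal day 22, female PBDE pups and female control pups on the same day, and adult PBDE males and adult control males at week 13. Each pup had a different dam. No group was a knockout or transgenic line, and every animal, controls included, had received corn oil.

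Haem is built from glycine and succinyl-CoA. Alas1 makes the first committed intermediate in mitochondria and sets the pace of the pathway in liver, Alad, Uros and Urod act in the cytosol, and Cpox, Ppox and Fech complete the ring in mitochondria, where Fech inserts the iron. In liver much of the haem goes to cytochrome P450 enzymes. Hamp encodes hepcidin, the liver hormone that binds ferroportin, the iron exporter encoded by Slc40a1, and removes it from the cell surface; BMP and SMAD signalling and the inflammatory factor STAT3 are known activators of Hamp. Hepatocytes, Kupffer cells and erythroid cells all carry Slc40a1, and haem synthesis runs in erythroid cells as well as hepatocytes. In a bulk liver sample, fewer cells of a type and less RNA per cell cannot be told apart.

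In RefSeq's GRCr8 build, Alas1 lies at chr8:115755238-115768642, Alad lies at chr5:80977562-80987901, Uros lies at chr1:197920827-197943183. Urod lies at chr5:135701294-135705380, Cpox at chr11:55405778-55415761, Ppox at chr13:86230111-86235028. Fech lies at chr18:60215325-60248525, Hamp at chr1:95298332-95300271 and Slc40a1 at chr9:55525457-55633463. These are whole gene spans, and the probe sets read the 3' ends of their transcripts.

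The stretches just upstream of 3 members are shown: Fech, the member called higher in pups, Hamp, the hormone gene whose BMP regulators are described later, and Alas1, the pace-setting enzyme. Neither Hamp nor Alas1 was called in a single dose comparison. Each is 250 bases upstream of the gene start in RefSeq's GRCr8 build, on the minus strand, and capitals mark every motif match found by the search. The Hamp stretch lies at chr1:95300272-95300521, the Fech stretch at chr18:60248526-60248775 and the Alas1 stretch at chr8:115768643-115768892.
Hamp: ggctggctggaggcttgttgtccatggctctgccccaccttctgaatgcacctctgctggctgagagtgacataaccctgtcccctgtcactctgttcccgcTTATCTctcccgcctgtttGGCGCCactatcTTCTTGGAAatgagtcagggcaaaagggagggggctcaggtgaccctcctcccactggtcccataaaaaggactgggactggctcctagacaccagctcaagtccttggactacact
Fech: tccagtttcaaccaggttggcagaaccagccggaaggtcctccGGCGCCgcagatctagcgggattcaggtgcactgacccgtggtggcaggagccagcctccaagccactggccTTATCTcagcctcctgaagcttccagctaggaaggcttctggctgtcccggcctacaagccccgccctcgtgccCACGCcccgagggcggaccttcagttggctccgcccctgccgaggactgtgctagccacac
Alas1: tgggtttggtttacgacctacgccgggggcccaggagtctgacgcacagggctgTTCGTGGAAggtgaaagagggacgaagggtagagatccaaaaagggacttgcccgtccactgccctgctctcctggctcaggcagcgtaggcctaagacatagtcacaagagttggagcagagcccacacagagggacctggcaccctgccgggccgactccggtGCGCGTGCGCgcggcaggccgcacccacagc
On both strands, 8 motifs were searched. GGCGCC, the core of a BMP response element, lies 124 to 129 bases upstream of Hamp and 202 to 207 bases upstream of Fech, and 8.69% of 33469 promoters hold it. TTCNNNGAA, the STAT form, lies 109 to 117 bases upstream of Hamp and 188 to 196 bases upstream of Alas1, against 7.67% of promoters. The NRF1 motif lies 22 to 31 bases upstream of Alas1, against 3.75% of promoters, and it overlaps a GCGTG, the core of the xenobiotic response element. That core also lies 57 to 61 bases upstream of Fech, and 25.9% of promoters hold it. AGATAA, a form that GATA factors are known to bind, found here on the opposite strand, lies 143 to 148 bases upstream of Hamp and 130 to 135 bases upstream of Fech, against 10.3% of promoters. The other motifs were CACGTG, TGANNNNGC and AGGTCA, held by 5.59%, 34.7% and 14.1% of promoters. GGCGCC and CACGTG lie upstream of Urod, and CACGTG and GCGTG upstream of Alad. The RefSeq stretches of Slc40a1, Ppox and Uros lie inside the gene spans given above, at a start other than the span's end, and are not described here. Of the 9 members, 8 had a sequence in the RefSeq table, and Cpox is named only. These matches are letters in a window, and no binding was measured.

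All values below are log2 levels as deposited, so a difference of 1 is a doubling, and levels of different probe sets cannot be set against each other. Array medians lay between 5.72 and 5.77, and arrays correlated with others of their group at a mean r of 0.988 to 0.994. The array names carry 1 of 2 prefixes: male PBDE pups share the first with both control groups of pups, and female PBDE pups and both adult groups share the second. The dose differences in male pups and adults therefore lie within 1 prefix, while in female pups, and between ages, prefix and group cannot be told apart. The Gapdh signal at the 3' end minus that at the 5' end, which can grow as RNA is degraded, averaged 2.09 in male PBDE pups against 1.61 in male control pups, 1.93 in female PBDE pups against 1.26 in female control pups, and 1.17 in adult PBDE males against 0.62 in adult control males. It was higher in the PBDE group each time, and the 4 arrays with the largest difference were all PBDE arrays.

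In pups given PBDE, the last enzyme of haem synthesis, Fech, was the only member called higher, in both sexes. The iron exporter Slc40a1 was the only member called lower in them. In adult males, at a looser threshold, Slc40a1 and Alad were called lower. Alad in male pups (-0.31, without overlap, limma adjusted p = 0.0257) and Uros in female pups (0.0278) lay between the pup and adult thresholds. The age by dose term of Alad was -0.03 (0.957). The number of members past the threshold was 2 of 9 in male pups, 2 in female pups and 2 in adults, with limma's adjusted p under 0.01 in pups and 0.05 in adults as the call. Over all 14217 genes, 7.48% were called in male pups, 6.13% in female pups and 3.9% in adults. With 9 members, a count of 2 says nothing of the set as a whole against those shares.

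**Figure D1:**
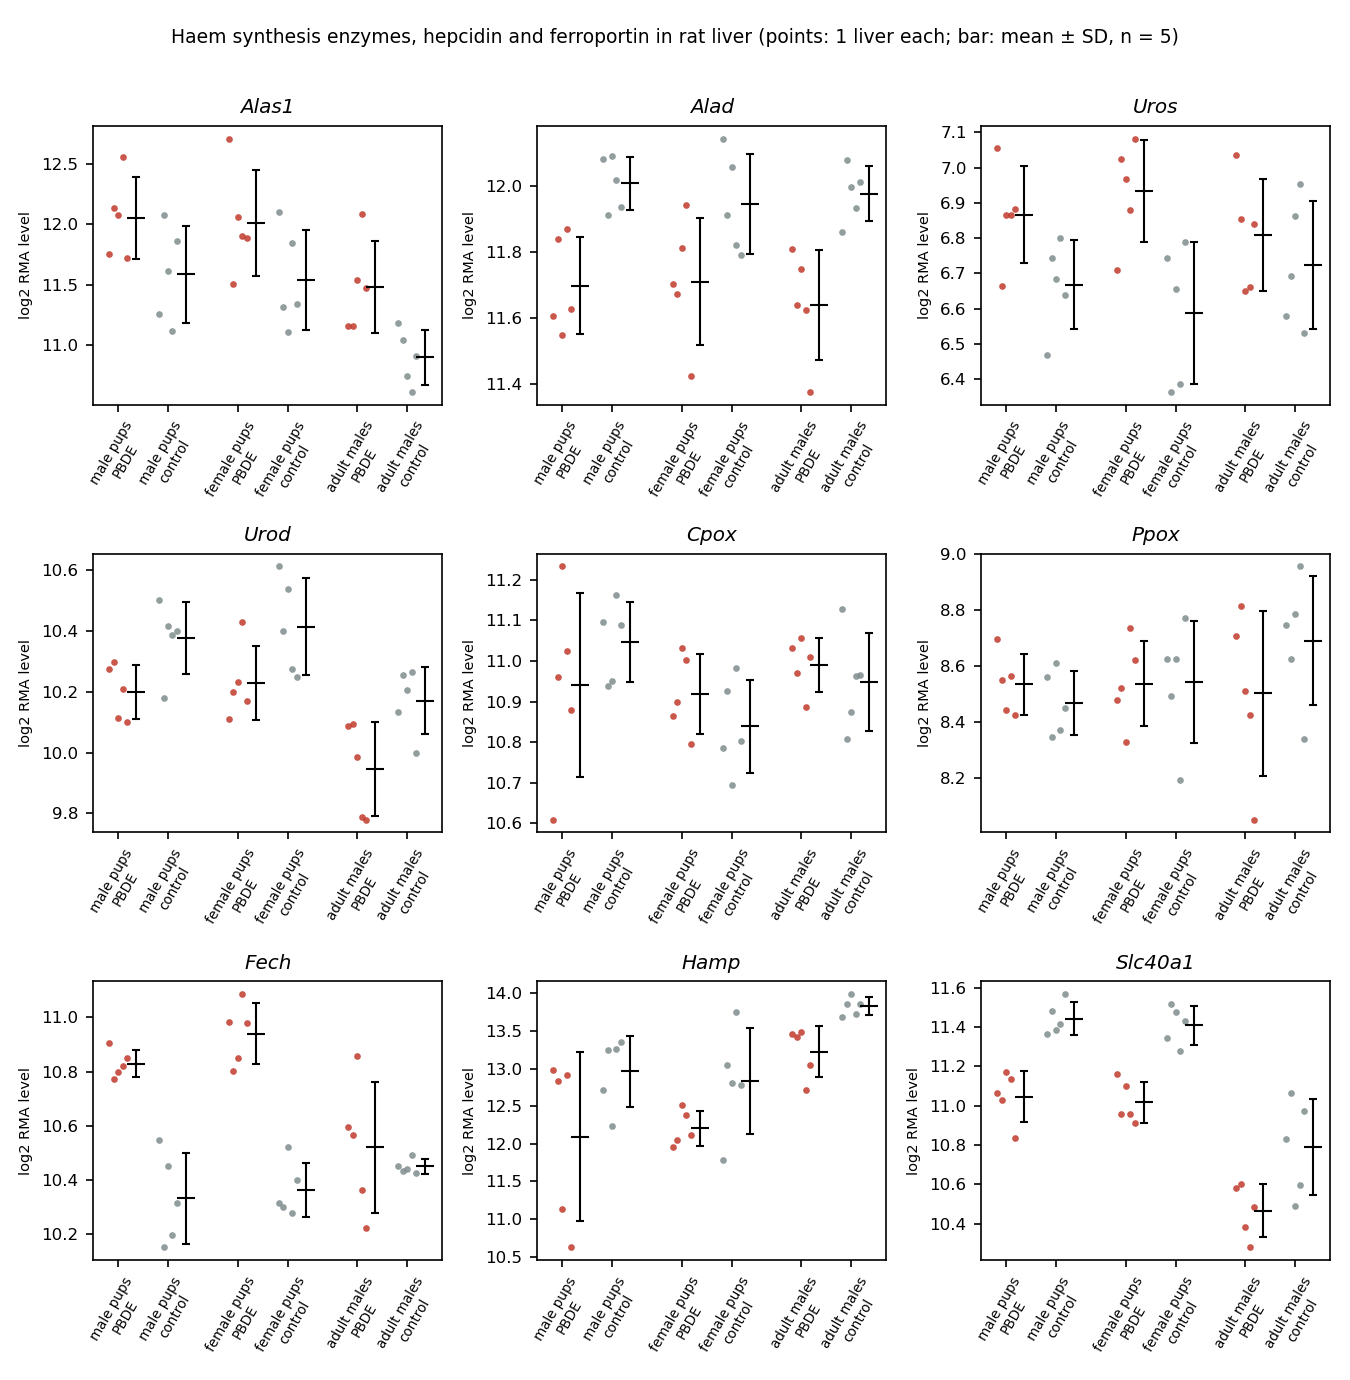
Log2 level of each of the 9 members (representative probe set) on every array, by group, with the PBDE group left of its control group; points are arrays and bars are group means ± SD. Fech lies higher in PBDE pups without overlap with the control pups, and Slc40a1 lies lower.

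Fech was read at 10.91, 10.77, 10.80, 10.82 and 10.85 in the male PBDE pups and at 10.55, 10.15, 10.45, 10.20 and 10.32 in male control pups. The female PBDE pups had 10.98, 10.80, 10.85, 11.09 and 10.98, and the female control pups 10.32, 10.30, 10.52, 10.28 and 10.40. Every PBDE pup was above every control pup of its sex. Fech rose by 0.50 ± 0.09 (SE) in male pups, a fold of 1.41 (limma adjusted p = 3.07e-04), and by 0.58 ± 0.09 in female pups, a fold of 1.49 (limma adjusted p = 5.35e-05). In adults it averaged 10.52 ± 0.24 in PBDE males and 10.45 ± 0.03 in control males (SD, n = 5 each), a difference of 0.07 with a 95% interval from -0.11 to 0.25 (limma adjusted p = 0.756), and the groups overlapped. The age by dose term, which sets the adult difference against that of male pups, was -0.43 ± 0.12 (limma adjusted p = 0.0749), so the difference between ages did not pass. It passed without male control pup replicate 1 (adjusted p = 0.0358), without adult PBDE replicate 3 (0.0163) or when dim probe sets were left out (0.0485). The pup calls held in all 19 alternatives, with the largest adjusted p at 0.0029 in male pups and 7.0e-04 in female pups. The female comparison also differs in prefix.

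Slc40a1, on its brightest probe set, was at 11.07, 11.03, 11.17, 11.13 and 10.83 in the male PBDE pups, against 11.36, 11.48, 11.39, 11.41 and 11.57 in the male control pups. It was at 11.16, 10.95, 11.10, 10.96 and 10.91 in female PBDE pups and at 11.34, 11.52, 11.48, 11.28 and 11.43 in female control pups. No PBDE pup reached a control pup of its sex. In adult PBDE males it was at 10.58, 10.60, 10.38, 10.28 and 10.48, and in adult control males at 10.83, 11.06, 10.49, 10.60 and 10.97, where the groups overlapped. Slc40a1 fell by 0.40 ± 0.09 in male pups (limma adjusted p = 0.00417), by 0.39 ± 0.09 in female pups (0.0052) and by 0.32 ± 0.09 in adults (0.0468). The other 2 probe sets gave -0.50 and -0.29 in male pups, -0.58 and -0.49 in female pups and -0.55 and -0.39 in adults. Of these, the second set's female value (adjusted p = 0.00735) and the third set's female value (0.00239) were called at the pup threshold, and both adult values (0.0238 and 0.0328) at the adult one, while the male values (0.019 and 0.0794) were not. Over the 30 arrays the 3 probe sets correlated with each other at r from 0.855 to 0.902, as a description.

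The Slc40a1 calls were close to the threshold. In male pups the call was lost without male PBDE replicate 2 (0.0101) or 5 (0.0181), without male control replicate 2 (0.0113) or 5 (0.0161), and without the 4 arrays of largest Gapdh difference (0.0505). In female pups it was lost without female control replicate 2 (0.0186), 3 (0.0163) or 5 (0.0118), without female PBDE replicate 2 (0.0147), 4 (0.015) or 5 (0.0203), with the Gapdh difference as a covariate (0.0237) and without the same 4 arrays (0.0215). In adults 11 of 19 alternatives lost it, among them leaving out adult control replicate 1, 2 or 5 or adult PBDE replicate 3, 4 or 5 (0.0806 to 0.145), and the compared groups alone gave 0.243. The direction held in all of them.

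**Figure D2:**
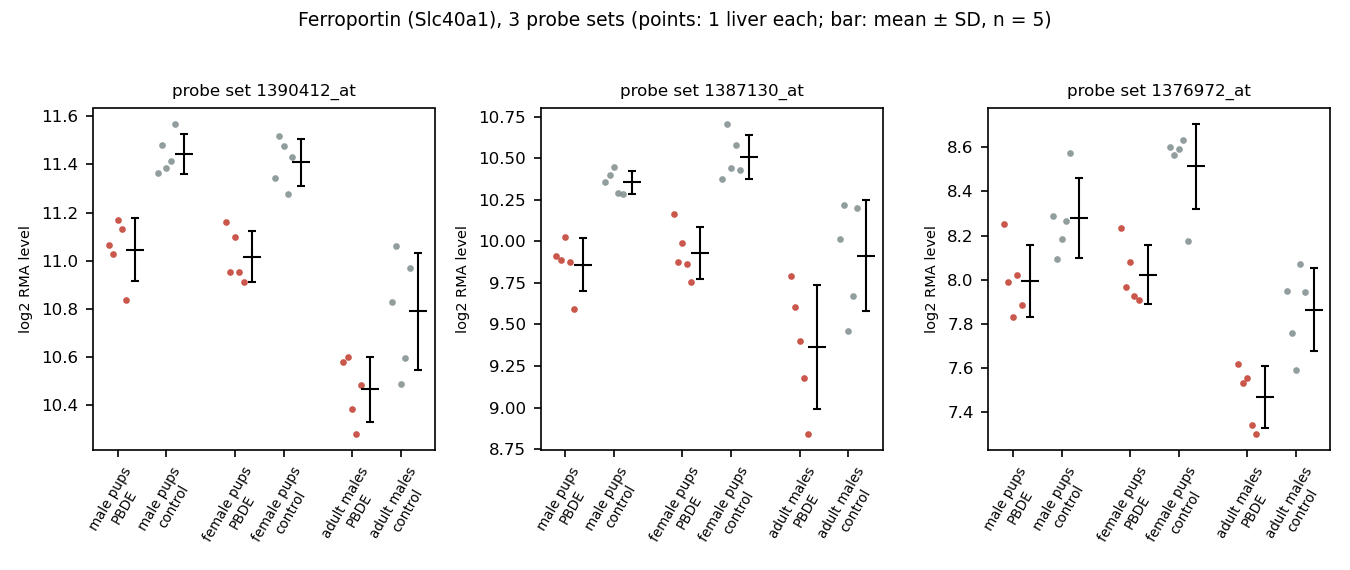
Log2 level of the 3 Slc40a1 probe sets on every array, by group, PBDE left of control; points are arrays and bars are group means ± SD. Each probe set's mean is lower in the PBDE groups, though PBDE and control arrays overlap for the third in both sexes of pups and for all 3 in adults, and they correlate at r from 0.855 to 0.902 over the 30 arrays.

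Some marker lists of other liver cells were also lower with PBDE, though not in every comparison in which Slc40a1 was called. Over all genes, 7.48% were called in male pups, 6.13% in female pups and 3.9% in adults. The mean level of 9 Kupffer cell markers was 8.86 to 9.08 in male PBDE pups against 9.25 to 9.56 in male control pups, with 2 called lower. That of 6 endothelial markers was 8.89 to 9.23 in male PBDE pups against 9.47 to 9.80 in male control pups, with 3 called lower, and 9.04 to 9.33 in female PBDE pups against 9.45 to 9.66 in female control pups, with 1 called lower. In adults the Kupffer cell markers ran from 8.56 to 9.31 in PBDE males and from 9.10 to 9.73 in control males, with 1 called lower, and the endothelial markers overlapped. In female pups the Kupffer cell markers ran from 8.93 to 9.39 with PBDE and from 8.97 to 10.07 in controls, with 0 called. Of 9 hepatocyte markers 1, 1 and 0 were called lower in male pups, female pups and adults, and 1 of 4 cholangiocyte markers was called higher in each. The mean level of the hepatocyte markers was 14.46 to 14.54 in female PBDE pups against 14.57 to 14.60 in female control pups. It overlapped in male pups and adults. These means lie above 14, near the highest value of 15.46, so few calls do not show equal hepatocyte content. The part of these lists in the fall of Slc40a1 was not tested.

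Alad, which joins the first intermediates into porphobilinogen, was at 11.81, 11.64, 11.75, 11.63 and 11.38 in adult PBDE males and at 11.86, 12.08, 11.998, 11.94 and 12.01 in adult control males. The groups did not overlap, and Alad fell by 0.34 ± 0.09 (limma adjusted p = 0.0378). In male pups it averaged 11.70 ± 0.15 in PBDE and 12.01 ± 0.08 in control animals (SD, n = 5 each), which again did not overlap, but the difference of -0.31 missed the pup threshold (adjusted p = 0.0257). Female pups averaged 11.71 ± 0.19 in PBDE and 11.95 ± 0.15 in control animals, a difference of -0.24 (adjusted p = 0.119). The adult call was lost in 10 of 19 alternatives, including without adult control replicate 2, 3, 4 or 5, without adult PBDE replicate 2, 4 or 5 (0.0538 to 0.133), and with the Gapdh covariate (0.152).

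Alas1, the pace-setting enzyme, was at 11.76, 12.14, 12.08, 12.56 and 11.72 in the male PBDE pups and at 11.26, 12.08, 11.61, 11.12 and 11.86 in male control pups. The female PBDE pups averaged 12.01 ± 0.44 and the female control pups 11.54 ± 0.41, and the adult PBDE males averaged 11.48 ± 0.38 and the adult control males 10.90 ± 0.23 (SD, n = 5 each). The groups overlapped in all 3 comparisons. The differences were 0.47, 0.47 and 0.58, each with an SE of 0.22, and none passed (limma adjusted p = 0.195, 0.219 and 0.157). Their 95% intervals all lay above 0, from 0.02 to 0.91 in male pups, 0.02 to 0.92 in female pups and 0.13 to 1.03 in adults. The interval of each difference thus runs from near 0 to about 1, and no call was made in any of the 19 alternatives of each comparison. In female pups the Alas1 difference was 0.30 without female PBDE replicate 1.

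The remaining 4 enzymes gave small differences and no calls. Uros, which closes the ring, differed by 0.20 in male pups, 0.35 in female pups (limma adjusted p = 0.0278) and 0.08 in adults, and its second probe set by 0.15, 0.03 and 0.02. Urod, the next step, differed by -0.18, -0.19 and -0.22 (0.191, 0.194 and 0.153). Cpox, which oxidises the side chains, differed by -0.11, 0.08 and 0.04. Ppox, which oxidises the ring, differed by 0.07, -0.00 and -0.19.

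Hamp, hepcidin, was at 12.98, 12.83, 11.13, 12.91 and 10.63 in the male PBDE pups and at 12.72, 13.25, 12.24, 13.26 and 13.35 in male control pups. In male PBDE pups 2 of the animals lay far below the other 3. The female PBDE pups had 11.96, 12.05, 12.51, 12.39 and 12.12 and the female control pups 11.79, 13.05, 12.81, 13.75 and 12.79. The adult PBDE males had 13.47, 13.42, 13.49, 12.71 and 13.04, below all of the adult control males at 13.69, 13.86, 13.99, 13.73 and 13.86. The differences were -0.87 ± 0.35 in male pups, -0.63 ± 0.35 in female pups and -0.60 ± 0.35 in adults (limma adjusted p = 0.117, 0.33 and 0.416), and none passed. This SE comes from 1 spread shared by the 6 groups. The SD was 1.13 in male PBDE pups, but 0.34 in adult PBDE males and 0.12 in adult control males. Over 19 alternatives the adult adjusted p ran from 0.0821 to 0.619, with no call. Over the alternatives in male pups, the Hamp difference ran from -1.09 without male PBDE replicate 1 to -0.50 without male PBDE replicate 5. In female pups it ran from -0.89 without female control replicate 1 to -0.40 without female control replicate 4. Over all genes, groups did not overlap for 11.9% in male pups, 10.9% in female pups and 4.59% in adults. Among the 9 members they did not overlap for 3 in male pups (Alad, Fech and Slc40a1), 2 in female pups (Fech and Slc40a1) and 2 in adults (Alad and Hamp).

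**Figure D3:**
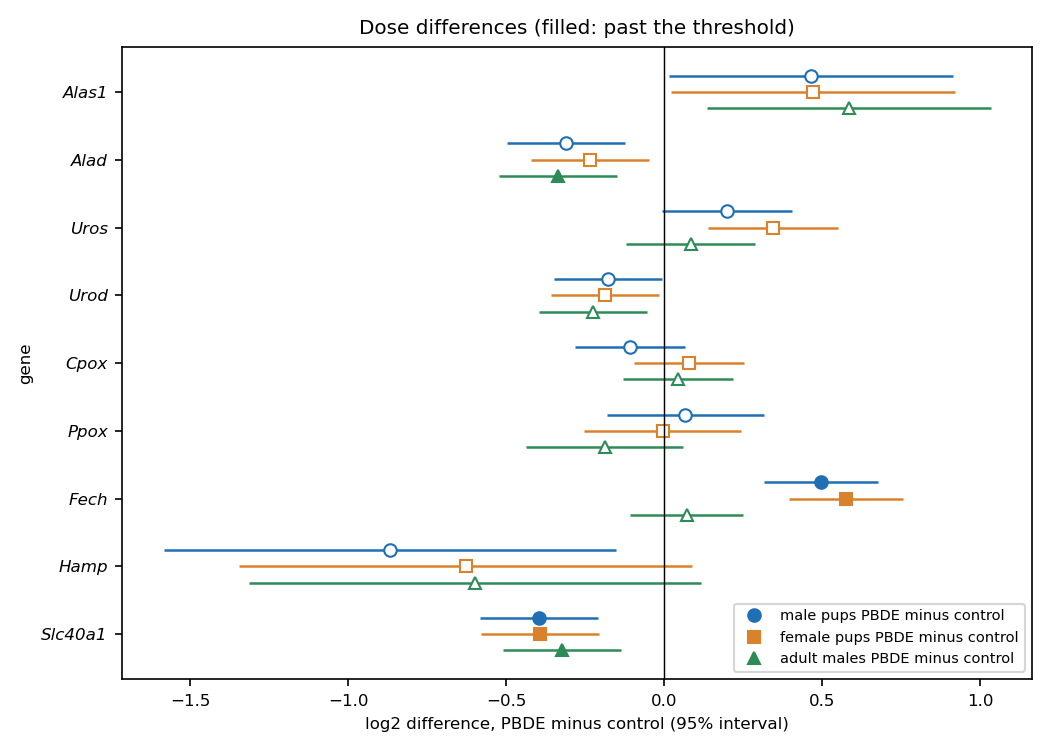
Log2 difference, PBDE minus control, of each member in male pups, female pups and adult males, with 95% intervals from the limma fit. Fech lies above 0 in pups and near 0 in adults, and Slc40a1 lies below 0 in all 3.

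Averaging the 3 dose differences in 1 contrast, chosen after the separate values had been seen, passed at an adjusted p under 0.01 for 6 of 9 members where 16.3% of all genes did. Alas1 was 0.51 higher with PBDE (limma adjusted p = 0.00432), Fech 0.38 higher (2.28e-06), Alad -0.29 (1.37e-04), Urod -0.20 (0.00366), Uros 0.21 (0.0095) and Slc40a1 -0.37 (5.57e-06), while Hamp was -0.70 (0.013). Uros lost its call in 26 of 36 alternatives, and Urod in 2, the Gapdh covariate (0.0704) and leaving out the 4 arrays of largest Gapdh difference (0.0248). Alad lost it with the covariate (0.018). Hamp passed without female control replicate 1, male PBDE replicate 1, 2 or 4, or male control replicate 3 (0.004 to 0.00786). The mean over male pups and adults alone, which stays within prefixes, passed for Alad, Fech and Slc40a1 (adjusted p = 0.00101, 0.00251 and 3.12e-04), against 8.29% of all genes, and not for Alas1 (0.0243), Hamp (0.0491), Urod (0.023) or Uros (0.208). With the Gapdh covariate Alad lost this call (0.0161) and Alas1 gained it (0.00948).

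Some genes around the enzymes rose in pups. Of 15 other measured genes of haem synthesis and mitochondrial import, 5 were called higher and 0 lower in male pups, 3 and 0 in female pups and 1 and 0 in adults. The shares of all genes called in either direction were 7.48%, 6.13% and 3.9% in these comparisons, the background for this and the lists that follow. The lists were chosen with earlier results of these data known, so their counts are descriptions. The mitochondrial carriers Slc25a38, which brings glycine, Slc25a37 (mitoferrin 1) and Slc25a39, and the haem-handling membrane proteins Abcb6 and Pgrmc1, were the 5 in male pups. Of 18 alternatives each in male pups, Slc25a39 lost its call in 11, among them the replicate block (limma adjusted p = 0.0127) and the mean of all its probe sets (a difference of 0.15, 0.0686), Slc25a37 in 7, Abcb6 in 5, Slc25a38 in 3 and Pgrmc1 in 0. The 3 in female pups were Slc25a28, which lost its call in 8, and Slc25a39 and Pgrmc1, which lost it in 2 each. Pgrmc1 was at 13.73 ± 0.03 in male PBDE pups against 13.39 ± 0.04 in male control pups (SD, n = 5 each), a rise of 0.33 (limma adjusted p = 3.89e-04). Slc25a37 rose by 0.54 in adults (adjusted p = 3.34e-04), with 7.69 ± 0.23 in adult PBDE males and 7.15 ± 0.14 in adult control males. The erythroid enzyme Alas2 differed by 0.11 in male pups, 0.78 in female pups and 0.01 in adults, with no call (0.863, 0.0799 and 0.994). The erythroid marker list had 0 of 12 called in any dose comparison, and its mean level was 7.06 to 7.28 in female PBDE pups against 6.59 to 6.95 in female control pups. It overlapped in male pups (6.82 to 7.39 against 6.74 to 7.21) and in adults (5.97 to 6.52 against 5.95 to 6.49). By group, 5 to 8 of the 12 markers lay below the median of all values, so a lack of calls does not show equal erythroid content.

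Some genes of haem transport and breakdown also rose in pups. Of 14 measured, 4 were called higher and 1 lower in male pups, 4 and 0 in female pups and 1 and 0 in adults. Blvrb, biliverdin reductase B, rose by 0.67 in male pups, 0.70 in female pups and 0.38 in adults (limma adjusted p = 2.05e-06, 1.21e-06 and 0.00824). Slc48a1, a haem transporter, Slc46a1, a folate and haem carrier, and Flvcr2, a further membrane carrier, rose in both sexes of pups, by 0.53, 0.55 and 0.86 in male pups. With all its probe sets averaged, Flvcr2 was 0.54 higher in male pups and 0.50 higher in female pups, and the calls held. Blvrb lost its adult call with the compared groups alone (0.0646). Abcg2, an exporter that carries porphyrins among other substrates, fell by 1.53 in male pups (3.17e-06). It was not called in female pups or adults. Over 18 alternatives each, Abcg2 ran from -0.61 to -0.45 in female pups, with a call in 1. In adults it ran from -0.71 to -0.40, with a call in 2. Hmox1, the inducible haem oxygenase, differed by -0.19, -0.12 and -0.35 with no call (0.702, 0.859 and 0.51).

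Of 26 measured genes of hepcidin regulation, 4 were called lower in male pups, 0 in female pups and 1 in adults. Id1, a direct BMP target, averaged 7.26 ± 0.40 in male PBDE pups against 8.27 ± 0.35 in male control pups (SD, n = 5 each), and fell by 1.01 (limma adjusted p = 5.48e-05). Id2 fell by 0.76 (6.27e-04), the BMP signal carrier Smad5 by 0.47 (4.43e-04) and Atoh8, known as an activator of Hamp, by 0.42 (0.00368), each in male pups. Smad5 did not pass when all its probe sets were averaged (0.123), and Atoh8 lost its call in 4 of 18 alternatives. In female pups Id1 differed by -0.35 (0.195), and in adults by -0.06 (0.898). Over 18 alternatives in female pups, Id2 ran from -0.49 to -0.30, Smad5 from -0.27 to -0.082 and Atoh8 from -0.26 to -0.15, none called. In adults each of these genes changed sign under some alternatives, with no call. The ligand gene Bmp6 differed by 0.15, 0.02 and -0.05. Bmp2 fell by 0.39 in adults (0.0383), a call lost in 12 of 18 alternatives, among them the replicate block (0.0509). Tfr2, an iron sensor, differed by -0.18, -0.51 and -0.04.

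The list of 17 measured genes of iron uptake and storage also holds Hamp and Slc40a1. Of these 17, 1 was called higher and 3 lower in male pups, 0 and 2 in female pups, and 0 and 2 in adults. Slc40a1 was among those called lower each time. Steap3, the endosomal iron reductase, fell by 0.82 in male pups, 0.96 in female pups and 0.71 in adults (limma adjusted p = 8.71e-04, 1.76e-04 and 0.0104). Aco1, whose protein also serves as an iron-responsive RNA binder, rose by 0.53 in male pups (6.56e-04). In female pups Aco1 was not called, and ran from 0.36 to 0.47 over 18 alternatives, with a call in 3. In adults it ran from 0.22 to 0.32, with no call. Ncoa4, which delivers ferritin for breakdown, fell by 0.30 in male pups (0.00418), a call lost in 4 of 18 alternatives, among them the compared groups alone (0.0333). In male pups Aco1 lost its call with the compared groups alone (0.0115), as did Steap3 in adults (0.0524). Tfrc, the transferrin receptor, differed by 0.11, 0.06 and 0.11.

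Among 9 measured regulators of Alas1, 0 were called higher and 2 lower in male pups, 0 and 3 in female pups, and 1 and 0 in adults. Nr1i2, which encodes the xenobiotic receptor PXR, fell by 0.58 in male pups (limma adjusted p = 3.23e-05) and by 0.46 in female pups (6.19e-04). Ppargc1a, a coactivator of Alas1, fell by 0.59 in female pups (0.00189). Nr1d1, a clock repressor, rose by 2.60 in adults (1.43e-04), at 7.71 ± 1.27 in adult PBDE males and 5.12 ± 0.66 in adult control males. Of 13 measured genes that use haem or pair with it, 7 were called higher and 0 lower in male pups, 7 and 1 in female pups and 4 and 0 in adults. This list, too, was chosen with earlier results of these data known, so its counts cannot be weighed against the shares of all genes. The 1 lower in female pups was Tdo2, a haem enzyme that breaks down tryptophan, at -0.56 (limma adjusted p = 4.52e-04). Cyp1a1 rose by 4.74, 5.31 and 6.56 (1.33e-08, 1.51e-09 and 3.05e-11), and Por, which passes electrons to cytochrome P450 enzymes, by 1.13, 1.31 and 1.15. With all its probe sets averaged, the rise of Por in female pups was 0.86, and its calls held.

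**Figure D4:**
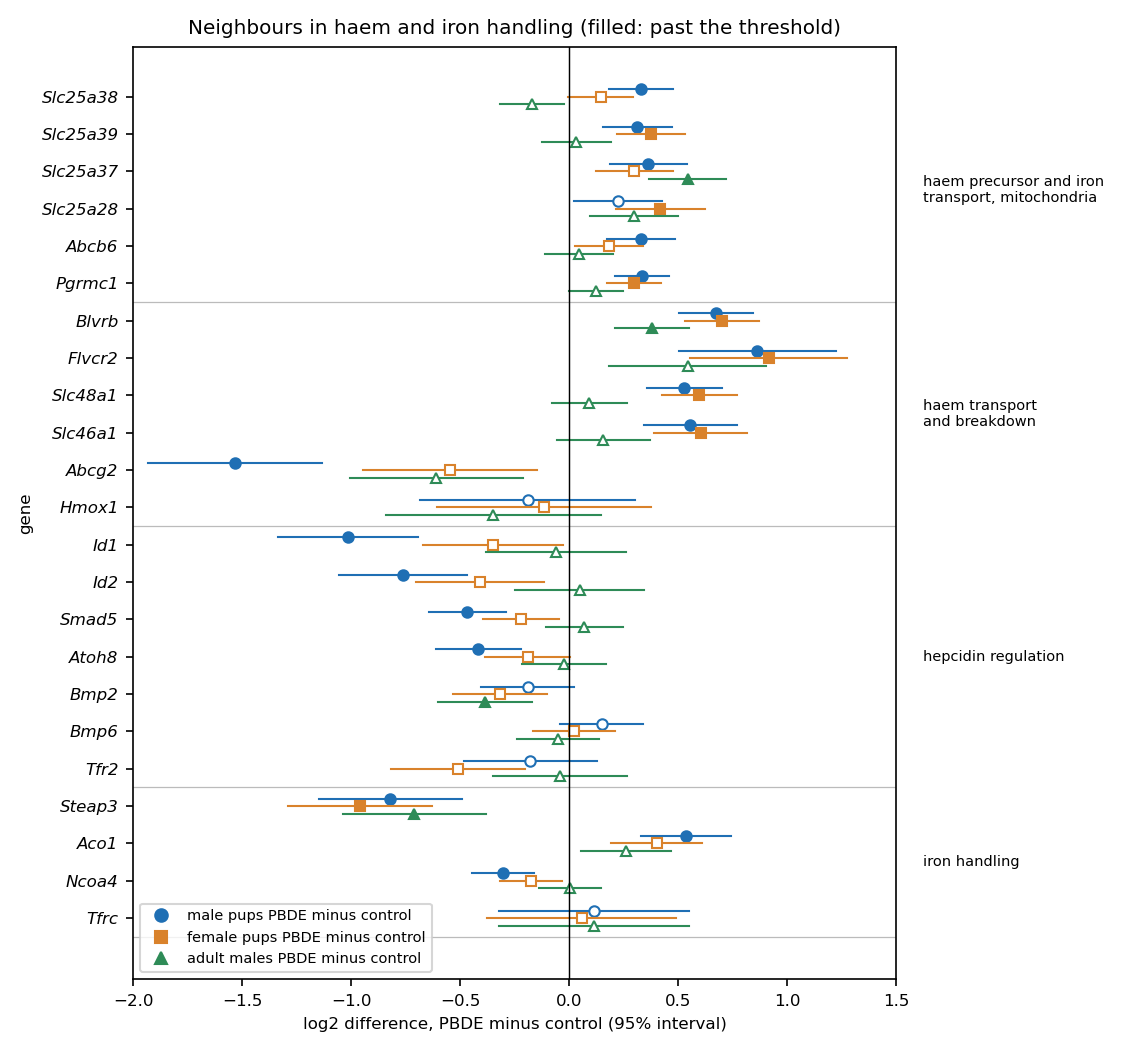
Log2 difference, PBDE minus control, of the pathway genes by list in male pups, female pups and adult males, with 95% intervals; filled symbols passed the threshold. Blvrb, Flvcr2, Slc48a1 and Slc46a1 lie above 0 in pups. Id1, Id2, Smad5 and Atoh8 lie below 0 in both sexes of pups and passed the threshold in male pups only.

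Between ages, prefix and age cannot be told apart. In control males, Slc40a1 was lower in adults by 0.65 ± 0.09 (limma adjusted p = 3.33e-06) and Alas1 by 0.69 ± 0.22 (0.0221), 2 of 9 members, where 29.5% of all genes were called. The Alas1 call was lost without male control replicate 2 (0.081) or 5 (0.0631) or adult control replicate 3 (0.0514) or 4 (0.0593). In PBDE males 4 of 9 members were called, where 18.8% of all genes were: Hamp was higher in adults by 1.13 ± 0.35 (0.0279), and Slc40a1, Fech and Urod were lower by 0.58, 0.31 and 0.25 (3.57e-05, 0.0167 and 0.0407). Among them Slc40a1 kept its call in all 18 alternatives. Hamp lost it in 8, without male PBDE replicate 3 (0.106) or 5 (0.121), without adult PBDE replicate 1, 2 or 3, with the compared groups alone (0.118), with no shrinkage (0.0504) or with the Gapdh covariate (0.152). Fech lost it without adult PBDE replicate 4 (0.0577) or 5 (0.0625) and with the compared groups alone, and Urod lost it in 7. Other lists moved with age as well. Of 12 erythroid markers 6 were called lower in adults among PBDE males and 6 among control males, with list medians of -0.71 in PBDE and -0.64 in control males. Of 6 endothelial markers 2 were called higher and 2 lower in adults among PBDE males, and 4 lower among control males. The Gapdh difference averaged 1.17 in adult PBDE males against 2.09 in male PBDE pups, and 0.62 in adult control males against 1.61 in male control pups. The part of these in the age differences was not tested. No member passed for age by dose, where 2.48% of all genes did.

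No sex difference was called. Of 9 members, 0 passed between male and female pups in controls, where 0.0422% of all genes did, and 0 in PBDE pups, where 0.0563% did. The sex by dose term gave 0 of 14217 genes, with 800 genes at an unadjusted p under 0.05 and 0 of the 9 members among them. A missed threshold does not show that the sexes respond alike, and the PBDE pups of the 2 sexes also differ in prefix.

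Over the 30 arrays, the genes whose levels were most like Alas1, among 6050 genes with an SD above 0.2, were Ubxn2a (Pearson r = 0.864), Sik2 (0.831), Dst (0.827), Dip2a (0.818) and Ctsl (0.780). Those most like Hamp were Htra1 (0.757), Wwp1 (0.744), Atoh8 (0.740), Slco1a1 (0.738) and Tm4sf4 (0.736). Those most like Slc40a1 were Cyp17a1 (0.886), Fxyd6 (0.885), A2m (0.883), Glul (0.883) and H19 (0.882). Within groups, over deviations from the group means, the closest were Aars1 (0.739) for Alas1, Sult2a2 (0.662) for Hamp and Fmo5 (0.650) for Slc40a1. These points share arrays and scaling, so the correlations are descriptions with no p.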

How the data were processed

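Livers of 30 rats were profiled on Affymetrix Rat Genome 230 2.0 arrays, and the values, deposited on a log2 scale, are the authors' RMA summaries per the labels; their software version is not given in the sources used here. Of 31099 probe sets, 57 were controls, and 31042 were tested. A platform table tied 20826 to 1 gene, 436 to several and 9780 to none; each gene was read from its single-gene probe set of highest mean. limma (3.58.1, R 4.3.3) fitted 1 mean per group on all 30 arrays, with Benjamini-Hochberg adjustment over all 31042 probe sets. The call was an adjusted p under 0.01 in pups and 0.05 in adults, across ages and for age by dose. The members and lists were chosen with earlier results of these data known. Pathway genes named are the up to 6 largest called changes of each list, by rule, and genes next to a member. Members' values in every alternative were recomputed; those printed singly are the dose differences, the 2 age comparisons for 5 members, Fech for age by dose, and the mean-dose contrasts except Cpox and Ppox. That restriction was made after values had been seen. Same-numbered arrays of different groups had a mean residual correlation of 0.00417 over 75 pairs, with 18 above 0.1. For differently numbered arrays the mean was -9.06e-04. Yet in 11 of the 30 arrays the likeness was greatest to the same number, and the count to be met by chance was not worked out. A mean over all groups cannot exclude pairing within some of them, so whether numbers pair animals was not settled. The script was tested on simulated data. With 5 arrays a group, the number of arrays limits the precision. Promoters came from RefSeq GRCr8; Cpox was not matched.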

Additional observations from a re-analysis of the deposited data

Results flagged for a closer look

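The third Slc40a1 probe set in female control pups had its lowest array, replicate 5, at 8.17, far from the other 4, by Dixon's criterion. That array also had the largest Gapdh difference of its group, 2.10 against 0.75 to 1.27, and the part of this was not tested. Over the 72 groups of 5 examined, 1 stood out, and chance flags about 5% of such groups. None of 18 interaction terms examined (sex by dose and age by dose) passed.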

How the results depend on the processing

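Over all members and comparisons, 103 of 2223 estimates changed sign under an alternative, and 0 of these were called in either fit; 8 of the 103 are listed singly here. The number of members called was 2 in each dose comparison. It became 1 in male pups without the 4 arrays of largest Gapdh difference, 1 in female pups with the Gapdh covariate and 1 without those 4 arrays. In adults it was 0 with the compared groups alone, 1 with no shrinkage, 1 with quantile normalization repeated, 0 with the covariate and 0 without the 4 arrays (an alternative chosen after seeing the data). Across ages it was 1 in PBDE males with the compared groups alone, and 1 for age by dose when dim probe sets were left out. All probe sets called in adults numbered 269 with the compared groups alone and 589 without the 4 arrays, those between PBDE pups of each sex 8 with the groups alone, and those across ages 4305 in control males and 2875 in PBDE males with the covariate; the cause was not tested. Leaving out 1 array gave 1 to 2 members in male pups, 1 to 2 in female pups, 0 to 2 in adults, 1 to 2 across ages in control males, 2 to 3 in PBDE males and 0 to 1 for age by dose, and 597 to 1032 probe sets in adults, 365 to 703 for age by dose and 0 to 1 for sex by dose. Signs turned, with no call in either fit, for Cpox in male pups without the 4 arrays (0.025), Ppox in female pups with the covariate (0.013) and without 1 array (-0.092 to 0.053), and Fech in adults without 1 array (-0.013 to 0.15). Among list genes, averaging all probe sets turned Bmp6 in male pups (-0.032) and female pups (-0.042), Tfrc in female pups (-0.13) and Smad5 in adults (-0.0050). The covariate turned Hmox1 in female pups (0.012) and, in adults, Slc25a39 (-0.046), Ncoa4 (-0.024), Nr1i2 (0.011), Alas2 (-0.020), Bmp6 (0.011) and Tfr2 (0.0089); repeated quantile normalization turned Atoh8 (0.0017) and Tfr2 (0.0010) there. Without 1 array, Tfrc ran from -0.036 to 0.26 in male pups, and in female pups Tfrc ran from -0.086 to 0.24, Hmox1 from -0.32 to 0.27 and Bmp6 from -0.033 to 0.057. In adults the ranges were -0.0031 to 0.069 for Slc25a39, -0.12 to 0.038 for Id1, -0.027 to 0.16 for Id2, -0.0044 to 0.13 for Smad5, -0.065 to 0.021 for Atoh8, -0.038 to 0.039 for Ncoa4, -0.32 to 0.014 for Nr1i3, -0.089 to 0.030 for Nr1i2, -0.22 to 0.25 for Alas2, -0.020 to 0.20 for Tfrc, -0.11 to 0.027 for Bmp6 and -0.14 to 0.044 for Tfr2. The replicate block, which treats same-numbered arrays as paired, kept 170 of 175 results. It ended the calls of Slc25a39 in male pups (0.0127) and of Nr1i3 (0.0175) and Cyp2c11 (0.0125) in female pups. The calls of Bmp2 in adults (0.0509) and Uros in the mean of the 3 (0.0167) also ended. Of 51 calls among the pathway genes followed by rule, some of them not described here, 33 were kept under all alternatives.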
